A study of Mus musculus with 33 samples.

Results

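The imprinted growth genes H19, Igf2, Cdkn1c, Dlk1, Meg3, Peg3, Mest, Plagl1, Grb10 and Igf2r were followed in RNAseq libraries of sorted mammary cells from 33 mice. They were chosen by name, and each of the 10 symbols matched 1 of the 55487 gene rows of the count table. All 10 had at least 10 reads over the 33 libraries together and were tested. PTHrP WT mice (Pthrpwt/wt) and PTHrP KO mice (Pthrpflox/flox) all carried MMTV-Cre and the mTmG reporter on an FVB background, so that cells in which the MMTV promoter had driven Cre were GFP+ in both genotypes. Tumor mice also carried MMTV-PyMT, a mouse mammary tumor virus promoter driving the polyoma middle T oncoprotein, and tumor-free mice did not. Cells were digested from the tissue, kept in culture with serum and sorted for GFP before RNA was taken, so every level below is that of sorted, briefly cultured cells. There were 3 WT tumors each at weeks 6, 8 and 10 and 1 at week 12, 3 KO tumors each at weeks 8, 10 and 12, 2 WT glands each at weeks 6, 8, 10 and 12, and 2 KO glands each at weeks 8, 10 and 12. The labels call the libraries of a group biological replicates and give each a mouse number, so the spread between libraries is that between mice.

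In imprinted genes only the copy from 1 parent is active in most tissues, and the mark that sets this is laid down in the germ line. Several of them control growth before birth. Igf2 is a growth factor expressed from the paternal copy, Igf2r is the maternal receptor that takes it to the lysosome, and Grb10 is an adaptor that damps insulin and IGF signaling. Cdkn1c encodes the cyclin-dependent kinase inhibitor p57. Peg3 and Plagl1 are zinc finger proteins, Mest is a paternally expressed hydrolase-like protein, and Dlk1 is a transmembrane protein related to Notch ligands. H19 and Meg3 are maternal noncoding RNAs. H19 is transcribed next to Igf2, with which it competes for enhancers, and Meg3 next to Dlk1. Mouse adult tissues silence many of these genes after birth. Allele of origin cannot be read from counts per gene, so nothing below bears on loss of imprinting.

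On GRCm38, H19 (chr7:142575529-142578143) and Igf2 (chr7:142650766-142666816) lie 72.6 kb apart on the minus strand, and Cdkn1c (chr7:143458339-143461050) lies 791.5 kb beyond Igf2. Dlk1 (chr12:109452823-109463336) and Meg3 (chr12:109541001-109571726) lie 77.7 kb apart on the plus strand of chromosome 12. Peg3 (chr7:6703892-6730431) starts 146 bases from Usp29, which runs the other way. The exons of Mest share 912 bases with those of Copg2 on the opposite strand, and those of Igf2 share 98 with Igf2os. Airn lies over Igf2r with 0 shared exon bases. The libraries were stranded, but whether reads were counted by strand is not given in the sources used here, so reads in the shared bases of Mest and Igf2 cannot be assigned to a gene.

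The transcripts of H19 and Meg3 carry the microRNA hairpins of miR-675 and miR-770 inside their exons. The mature sequences are shown because, of the members above the floor of detection, H19 varied most among tumors and Meg3 was furthest below its gland level there. Seeds (bases 2 to 8) are in capitals, and the 4 seeds differ. The libraries do not measure the mature microRNAs, and the sequences are those of RefSeq.
mmu-miR-675-5p: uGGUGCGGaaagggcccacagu
mmu-miR-675-3p: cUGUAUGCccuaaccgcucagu
mmu-miR-770-5p: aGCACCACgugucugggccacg
mmu-miR-770-3p: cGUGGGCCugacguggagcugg

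PTHrP signals through a receptor that raises cAMP, and the palindrome TGACGTCA is the consensus cAMP response element. It was searched for in RefSeq promoter windows (GRCm38.p6, 250 bases before to 50 after a start). Windows were at hand for 8 members and none for H19 or Cdkn1c. The palindrome was in a window of 2 members, Peg3 and Meg3, and in 1.79% of 32851 windows of all genes. In Peg3 it starts 178 bases before the start site (chr7:6730590-6730597, minus strand), inside the first exon of Usp29, so that only 30 bases around it are given (chr7:6730579-6730608). In Meg3 it starts 57 bases before the start (chr12:109540939-109540946), and the 250 bases up to that start are given (chr12:109540746-109540995, plus strand). The palindrome is in capitals. The hexamer TGCCGC, the core letters bound by the imprint-keeping factor ZFP57, was found on either strand in a window of Igf2, Meg3, Mest, Plagl1 and Grb10 and in 11.6% of all windows. The members are counted as genes, with 1 to 4 windows each, some of which overlap, and the shares are of windows, so the figures are in unlike units. A match of letters is a description of the sequence and not a bound site.
Peg3: actgactccgtTGACGTCAactccgtgcct
Meg3: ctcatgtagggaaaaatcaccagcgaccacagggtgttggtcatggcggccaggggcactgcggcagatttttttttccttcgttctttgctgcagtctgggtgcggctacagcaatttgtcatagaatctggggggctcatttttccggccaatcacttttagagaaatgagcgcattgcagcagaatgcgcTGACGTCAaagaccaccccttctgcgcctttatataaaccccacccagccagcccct

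Levels are in CPM, each gene's share of a library's reads on the usual common scale after TMM scaling. Each library held 28419983 to 130981596 counted reads (median 46351179), at which 3 reads, the expected count that an observed count of 0 still allows, are worth 0.0231 to 0.148 CPM. Intervals and floors of this kind cover counting error only. The targeted gene Pthlh gave 1.47 to 6.67 CPM in 10 WT tumors and 1.35 to 2.29 CPM in 9 KO tumors, and 2.93 to 7.73 CPM in 8 WT and 2.79 to 8.52 CPM in 6 KO glands, so the genotypes overlapped in both tissues. Counts summed over the whole gene do not show whether its floxed part is missing. The summed level of 10 basal markers was 4711 to 17840 CPM in glands and 971 to 4836 in tumors. That of 10 luminal markers was 4802 to 12740 CPM in all libraries. RNA of both marker lists was thus present in every group. The rRNA share was over 1% in 8 libraries, all of KO mice (4 glands and 4 tumors, up to 18.8%), and at most 0.447% in WT libraries. High rRNA share and KO genotype thus came together, and the members' averaged comparisons that change without those 8 libraries are given both ways.

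The members' levels spanned a wide range. Compared per kilobase of exon over all 33 libraries, Igf2r was first with a median of 34.9 CPM per kb, followed by H19 at 29.9, Peg3 at 11.9, Grb10 at 9.17, Cdkn1c at 1.60, Plagl1 at 0.437, Mest at 0.426, Meg3 at 0.0293, Igf2 at 0.00831 and Dlk1 at 0.00700. Each neighboring pair in this order overlapped in its range over the 33 libraries. In glands H19 came first with a median of 55.2 CPM per kb, before Igf2r at 28.6, and in tumors Igf2r came first with 39.0, before H19 at 20.8. Igf2 did not pass 0.02795 CPM per kb in any library, while its receptor Igf2r never fell under 23.1.

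**Figure D1:**
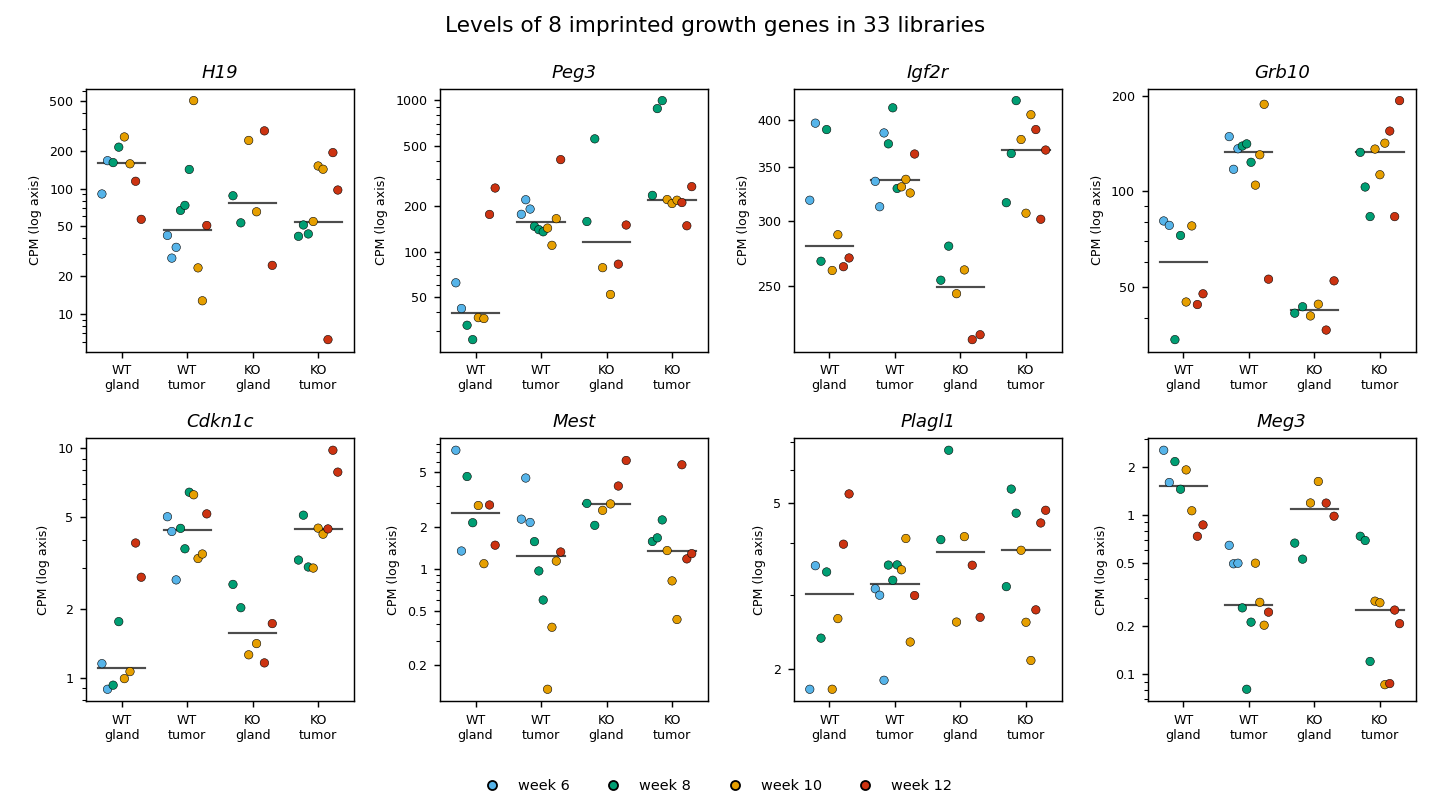
CPM on log axes of the 8 members above the floor, 1 point per library (33 libraries), by genotype and tissue and colored by week, with a bar at each group's median. Cdkn1c and Grb10 were higher and Meg3 lower in tumors of both genotypes, and H19 ran from 6.26 to 502 CPM among the tumors.

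H19 and Igf2, which share enhancers, were far apart in level. H19 had 429 to 33474 reads per library, while Igf2 had 0 to 8 reads, at most 3 in 24 of 33 libraries and 0 in 8 of them. In tumors H19 ranged from 6.26 to 502 CPM, 80.3-fold, and in glands from 24.4 to 288 CPM, 11.8-fold. At week 10 the 3 WT tumors had 502, 23.3 and 12.8 CPM of H19. At week 12 the 3 KO tumors had 6.26, 193 and 97.3 CPM. These were the widest groups, 39.4-fold and 30.9-fold, while the other 4 groups of 3 tumors spanned 1.23-fold to 2.77-fold. The tissue medians were 51.3 CPM in 19 tumors and 136 CPM in 14 glands.

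H19 was not called between tumors and glands. A gene was called when its fold change was over 1.5 and its adjusted p in edgeR's quasi-likelihood test was under 0.1. In WT mice of weeks 6, 8 and 10 the median H19 level was 42.3 CPM in 9 tumors and 164 CPM in 6 glands. Of the 9 tumors, 7 lay below every gland and 1, with 502 CPM, lay above every gland. The log2 fold change was -1.03 (SE 0.61, edgeR adjusted p = 0.278). Without that tumor it was -2.14 and H19 was called lower, as it was with no filter on low counts (-1.03, edgeR adjusted p = 0.0701). In KO mice the log2 fold change was -0.57 (SE 0.61, edgeR adjusted p = 0.729), the groups overlapped, and the sign turned to 0.34 without the KO gland of week 12 replicate 1, which had 288 CPM. Over the 19 tumors the H19 level had a Spearman rho of 0.751 with the summed adipocyte markers, 0.693 with macrophage, -0.656 with luminal and 0.535 with fibroblast markers, the other 4 lists being under 0.5 in size, a description over libraries that share these groups. Most reads of the adipocyte sum were of Lipe (27236 over all libraries, beside 3741 of Plin4, the next). Those of the macrophage sum were mostly of Cd14 (310593, beside 7379 of Csf1r, the next). Each of these sums thus mostly follows a single gene. The part of cell makeup in the H19 level was not tested.

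Igf2 was at the floor, so its counting error enters the ratio of H19 to Igf2 in every library. The mean log2 ratio of reads, with 0.5 added to each, was 11.3 ± 1.22 (SD) in 9 WT tumors and 10.8 ± 1.69 in 8 WT glands, which include the 2 of week 12 while the tumors are of weeks 6 to 10, a difference of 0.47 (exact permutation test, two-sided p = 0.518, adjusted over 8 tests 0.684). The other 3 comparisons of this ratio gave differences between -0.72 and 0.87, with exact permutation p-values of 0.273 to 0.907. No difference of the ratio was larger than the spread between mice.

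Across the 19 tumors the levels of H19 and Igf2 ran together, with Pearson r = 0.539 and Spearman rho = 0.53 (permutation p = 0.0176 and 0.0216, adjusted over 4 relations 0.0352 and 0.0431). Without the tumors with the highest and the lowest H19 level r was 0.507. Taken as deviations from the mean of each genotype and week, r was 0.872, and the permutation p of 1e-05 is the smallest that 100000 permutations can give. In 9 KO tumors alone r was 0.522 (permutation p = 0.152), and in 10 WT tumors alone it was 0.739 (permutation p = 0.025). In the 14 glands r was 0.057 (permutation p = 0.848). For the correlation H19 and Igf2 in glands, the WT libraries alone gave -0.654 (permutation p = 0.077) and the KO libraries alone 0.314 (permutation p = 0.499). In likeness to H19 over the tumors Igf2 ranked 1912 of 13323 genes, those with a mean level of at least 1 CPM and Igf2, and it never passed 4 reads in a tumor. With so few reads the relation is a description. The 3 genes most like H19 over the 19 tumors were Tmem229b, Man2b1 and Rab3a (r = 0.893, 0.893 and 0.892), and over the 14 glands Slc35g2, Creb3l4 and Mfsd9 (r = 0.899, 0.878 and 0.877). Igf2 itself was most like Col4a4, Palmd and Gemin8 in tumors (r = 0.849, 0.794 and 0.784) and Zfp944, Tia1 and Gm35339 in glands (r = 0.899, 0.885 and 0.882).

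**Figure D2:**
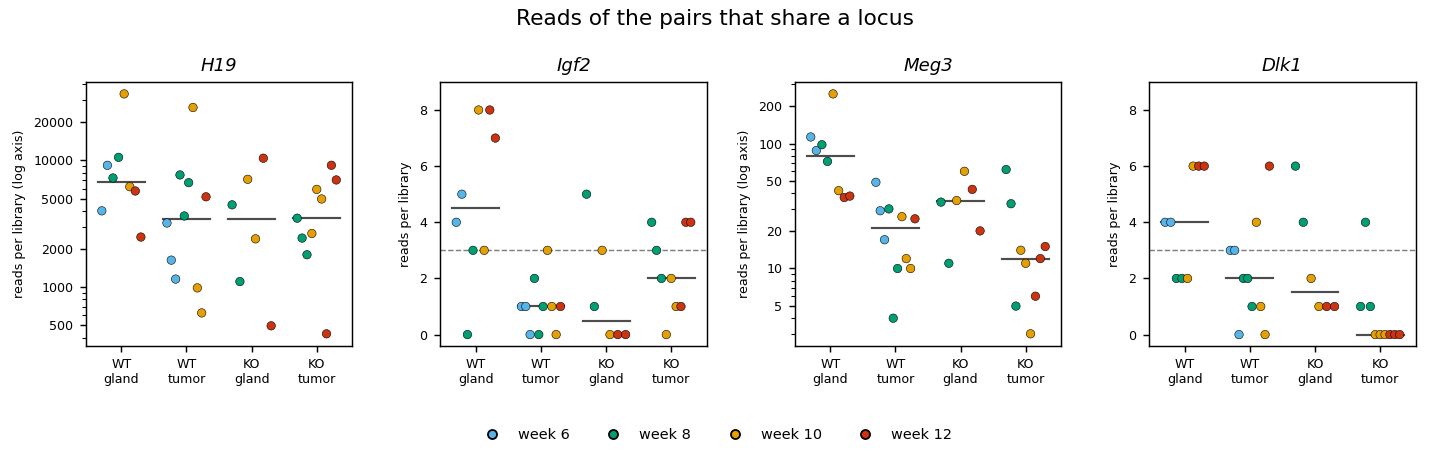
Reads per library of H19, Igf2, Meg3 and Dlk1 by genotype and tissue, colored by week, with a bar at each group's median and log axes for H19 and Meg3. The dashed line marks 3 reads, which 24 of 33 libraries did not pass for Igf2 and 23 did not for Dlk1.

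Tumors of both genotypes held more Cdkn1c, Peg3 and Grb10 and less Meg3 than glands. Between WT tumors and glands, averaged over weeks 6, 8 and 10, 5 of the 10 members were called, 3 higher and 2 lower, where 15.7% of the 36527 genes tested were called. Between KO tumors and glands, averaged over weeks 8, 10 and 12, 5 of 10 were also called, 3 higher and 2 lower, where 10.6% of all genes were. Without the 8 libraries over 1% rRNA, KO tumors and glands were compared over weeks 8 and 12 only, with 1 gland at each. Cdkn1c, Peg3 and Grb10 were then still called and Meg3 and Dlk1 were not. The members' median log2 fold change was -0.43 in WT (0.03 over all genes) and 0.26 in KO (0.09 over all genes). With 10 genes that were chosen with earlier results known, these counts describe the members and test nothing about them as a group.

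**Figure D3:**
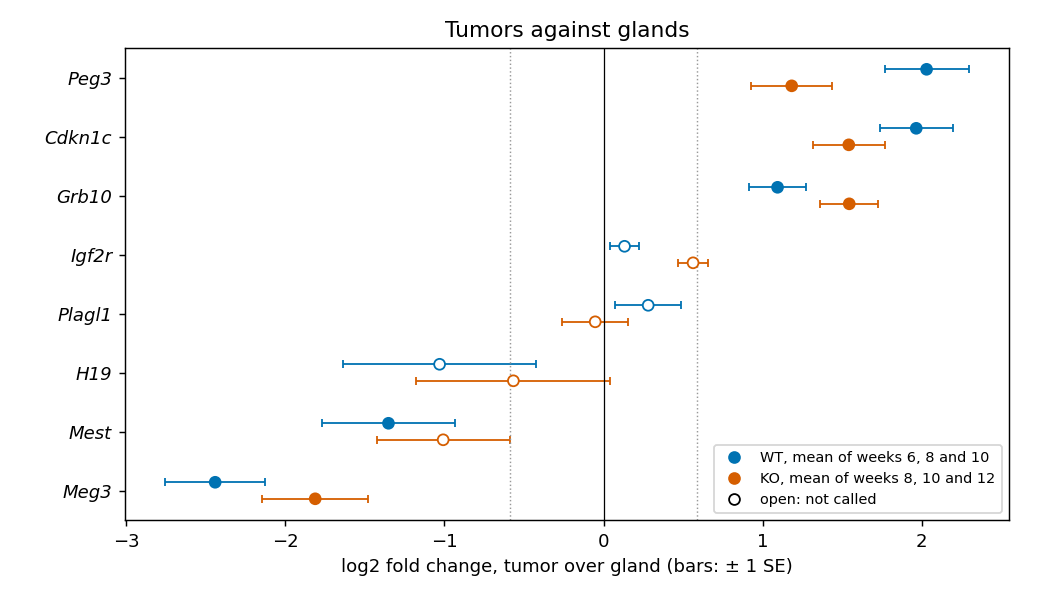
Log2 fold change of tumor over gland for 8 members, with bars of 1 SE either way, for WT (mean of weeks 6, 8 and 10) and KO (mean of weeks 8, 10 and 12). Filled points were called, dotted lines mark a fold of 1.5, and Igf2 and Dlk1 are left out because they were at the floor. Peg3, Cdkn1c and Grb10 lie to the right and Meg3 to the left in both genotypes.

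Cdkn1c, which restrains the cell cycle, was higher in every tumor than in every gland of the same genotype and weeks. In WT mice the lowest, median and highest tumor had 2.67, 4.34 and 6.42 CPM and the glands 0.893, 1.03 and 1.76 CPM. In KO mice the tumors had 3.01, 4.45 and 9.78 CPM and the glands 1.16, 1.57 and 2.55 CPM. Log2 fold changes were 1.97 (SE 0.23, edgeR adjusted p = 4.878e-07) in WT and 1.54 (SE 0.23, edgeR adjusted p = 2.254e-05) in KO. These levels are low, 35 to 566 reads per library. Cdkn1c was called at weeks 6, 8 and 10 in WT and at weeks 10 and 12 in KO, the last not in a fit of those groups alone (log2 2.34, edgeR adjusted p = 0.166). The highest levels were in KO tumors of week 12, which had 4.45, 9.78 and 7.86 CPM. In WT glands Cdkn1c was 1.15 and 0.893 CPM at week 6 and 3.86 and 2.74 CPM at week 12, a log2 fold change of 1.69 (SE 0.42, edgeR adjusted p = 0.107) that was not called. DESeq2 called it (adjusted p = 0.00861, beside 683 of 36527 genes). So did edgeR with no filter (adjusted p = 0.0176, 558 of 49472) and with filterByExpr (0.0735, 280 of 21423). It was not called with the rRNA share as a covariate or in a fit of those glands alone.

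Grb10, the signaling adaptor, was likewise higher in every tumor than in every gland of its comparison. WT tumors had 104.6, 136 and 188 CPM (lowest, median, highest) and WT glands 34.2, 75.3 and 80.7 CPM. KO tumors had 83.3, 133 and 193 CPM and KO glands 36.7, 42.4 and 52.4 CPM. Tumor over gland, the log2 fold change was 1.09 (SE 0.18, edgeR adjusted p = 4.968e-05) in WT and 1.55 (SE 0.18, edgeR adjusted p = 1.123e-06) in KO. Grb10 was the only member called in KO mice at week 8 (log2 1.33, SE 0.31, edgeR adjusted p = 0.0278), a call lost without either gland of that week (log2 1.29 and 1.39, edgeR adjusted p = 0.346 and 0.175). It was not called in WT mice at week 6 (log2 0.75, SE 0.30, edgeR adjusted p = 0.198), where the glands were at 80.7 and 78.2 CPM. The WT tumor of week 12, which entered no comparison between groups, stood at 53.0 CPM, below every other tumor.

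Igf2r was steady beside the others, within 1.97-fold over all 33 libraries. Its log2 fold change was 0.13 (SE 0.09, edgeR adjusted p = 0.368) in WT and 0.56 (SE 0.09, edgeR adjusted p = 8.075e-05) in KO. All 9 KO tumors (302 to 422 CPM) were above all 6 KO glands (215 to 280 CPM), but the fold of 1.48 was under the threshold of 1.5 and Igf2r was not called there. Leaving out any of 6 single libraries took it past that fold, up to a log2 of 0.61. It was called at week 12, where KO tumors had 389, 302 and 367 CPM and KO glands 215 and 218 CPM (log2 0.71, SE 0.16, edgeR adjusted p = 0.0093), but not in a fit of those groups alone (log2 0.69, edgeR adjusted p = 0.217). Airn, the antisense RNA over Igf2r, was not called in either genotype (log2 -0.03 in WT and 0.42 in KO).

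Meg3, the noncoding RNA that stands beside Dlk1, was lower in tumors. In WT mice every tumor (0.0806, 0.284 and 0.646 CPM, lowest, median and highest) was below every gland (1.07, 1.76 and 2.56 CPM). In KO mice 7 of 9 tumors were below every gland, and the tumors had 0.0861, 0.253 and 0.737 CPM beside 0.529, 1.09 and 1.63 CPM in glands. The log2 fold change was -2.44 (SE 0.32, edgeR adjusted p = 2.148e-06) in WT and -1.81 (SE 0.33, edgeR adjusted p = 0.0002861) in KO. Tumors held 3 to 62 reads of Meg3 per library and glands 11 to 250. At week 8 the KO tumors had 0.737, 0.693 and 0.121 CPM and the KO glands 0.668 and 0.529 CPM, so the tissues did not separate (log2 -0.20, SE 0.57, edgeR adjusted p = 0.953). Without the 8 libraries of high rRNA share no KO gland of week 10 was left, so only weeks 8 and 12 were compared. The KO difference was then -1.25 and the call was lost. With all libraries the log2 fold change was -2.65 at week 10 and -2.59 at week 12. The part of the missing week in this change was not tested.

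Of the 4 other listed genes of the Meg3 domain, Rian, Mirg and Dio3 were also lower in tumors, and Rtl1, with 0 to 5 reads per library, was not called in either genotype (edgeR adjusted p = 0.352 in WT and 0.464 in KO). Rian, Mirg and Rtl1 were named after their values were seen. Rian and Mirg are noncoding RNAs of the same maternal cluster and Dio3 is the deiodinase that inactivates thyroid hormone. The WT log2 fold changes were -2.51 (SE 0.42) for Rian, -2.84 (SE 0.55) for Mirg and -3.68 (SE 0.49) for Dio3, with edgeR adjusted p-values of 8.005e-05, 0.0004042 and 3.481e-06. In KO they were -1.98 (SE 0.43), -1.80 (SE 0.60) and -3.40 (SE 0.47), with edgeR adjusted p-values of 0.001866, 0.0449 and 8.467e-06. Over libraries Rian was like Meg3 with r = 0.628 in 19 tumors and 0.839 in 14 glands, and Mirg with 0.494 and 0.65. The 3 genes most like Meg3 were Cdh11, Unc79 and B3gnt5 in tumors (r = 0.785, 0.758 and 0.737) and Cyth3, Plpp5 and Jag1 in glands (r = 0.951, 0.938 and 0.933).

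**Figure D4:**
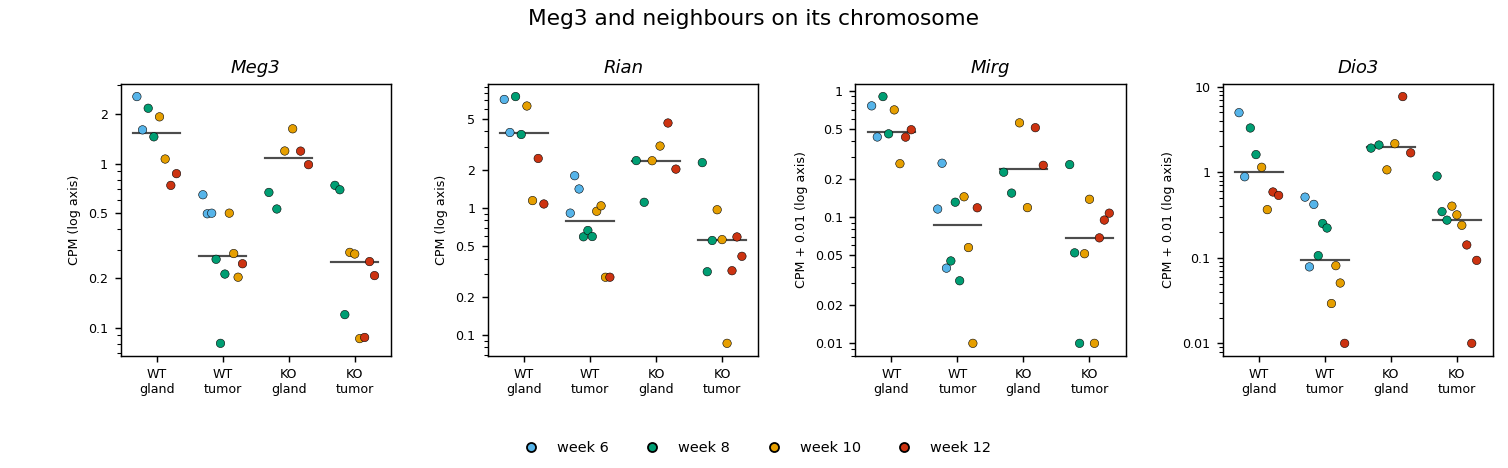
CPM on log axes of Meg3 and of Rian, Mirg and Dio3 in the 33 libraries, by genotype and tissue and colored by week, with a bar at each group's median (0.01 CPM added for Mirg and Dio3, which had libraries at 0). The tumor medians lie below the gland medians for all 4 genes in both genotypes.

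Markers of other cells moved with these tissues too, where 15.7% of all genes were called in WT and 10.6% in KO. All 10 of 10 basal markers were lower in tumors in both genotypes (median log2 fold change -2.95 in WT, -2.85 in KO). The summed endothelial markers were 5.05 to 25.5 CPM in tumors and 6.50 to 91.7 CPM in glands, with 7 of 10 called lower in WT and 1 of 10 in KO. The summed fibroblast markers were 14.1 to 157 CPM in tumors and 15.6 to 818 CPM in glands, with 6 of 10 called lower in WT and 1 of 10 in KO, and the sum of 818 CPM was in 1 WT gland of week 8. Summed macrophage markers were 151 to 418 CPM in tumors and 62.9 to 173 CPM in glands, with 1 of 10 called higher and 3 lower in WT and 3 of 10 higher in KO. Their median log2 fold change was -0.254 in WT and 0.196 in KO. Cd14 carried most of the macrophage sum (310593 reads over all libraries, beside 7379 of Csf1r, the next), as Lipe did of the adipocyte sum. Of the luminal markers 1 of 10 was higher and 4 lower in WT, and 2 were higher and 3 lower in KO. Adipocyte markers (2 of 10 lower in WT, 0 in KO), lymphocyte markers (1 of 10 lower in each) and skeletal muscle markers (1 of 10 higher and 1 lower in WT, 1 lower in KO) had fewer calls. For each called member above the floor, the list with the largest Spearman rho in size over the 19 tumors was adipocyte for Cdkn1c (0.609), luminal for Grb10 (0.698), basal for Meg3 (0.584), macrophage for Mest (-0.66) and endothelial for Peg3 (-0.337). Over the 14 glands it was macrophage for Cdkn1c (0.719) and Meg3 (-0.745), luminal for Grb10 (0.538), skeletal muscle for Mest (0.648), and fibroblast and endothelial for Peg3 (-0.701 each). The part of these cells in the results for the members was not tested. In bulk RNA, fewer cells of a type and less RNA per cell cannot be told apart.

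Dlk1 was at the floor, with 0 to 6 reads per library, at most 3 in 23 of 33. The 9 KO tumors held 6 reads of Dlk1 together, with 0 reads in every KO tumor of weeks 10 and 12, and the 6 KO glands held 15. Dlk1 passed the call in KO mice (edgeR adjusted p = 0.009798), but at these counts no fold is given. The call was lost without the libraries of high rRNA share, in a fit of weeks 8 and 12 only. In WT mice 9 tumors held 16 reads and 6 glands 20 (edgeR adjusted p = 0.337). Igf2 reads were 9 in 9 WT tumors against 23 in 6 WT glands (edgeR adjusted p = 0.102) and 21 in 9 KO tumors against 9 in 6 KO glands (edgeR adjusted p = 0.61). Igf2 was called by edgeR in 0 of the 14 comparisons. Its unadjusted edgeR p was under 0.05 in WT tumors against glands over all weeks and at week 6, and over all weeks it was called lower in tumors by DESeq2 (adjusted p = 0.06936), by edgeR with DESeq2's size factors (0.0989), without the WT tumor of week 12 (0.0982), without WT tumor week 10 replicate 1 (0.0595) and without WT gland week 8 replicate 1 (0.0488). With 0 to 8 reads of Igf2 and 0 to 6 of Dlk1 per library, these calls rest on few reads.

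The ratio of Dlk1 to Meg3 did not differ beyond its spread. The mean log2 ratio was -3.26 ± 1.22 (SD) in 9 WT tumors and -4.20 ± 1.49 in the same 8 WT glands (difference 0.94, exact permutation p = 0.173, adjusted 0.684). In KO mice it was -3.96 ± 1.198 in 9 tumors and -3.59 ± 1.49 in 6 glands (difference -0.37, exact permutation p = 0.599, adjusted 0.684). Over the 14 glands Dlk1 and Meg3 ran opposite, with Pearson r = -0.657 and Spearman rho = -0.644 (permutation p = 0.0115 and 0.0149, adjusted over 4 relations 0.0352 and 0.0431). Without the 2 glands farthest from the median of Dlk1, r was -0.543. In 19 tumors r was 0.439 (permutation p = 0.059, adjusted 0.0786), and 0.183 without the 2 farthest. With 1 to 6 reads of Dlk1 per gland, 1 read more or less moves a point a long way, and the relation is a description. For the correlation Dlk1 and Meg3 in glands, KO libraries alone gave r = -0.911 (permutation p = 0.00868) and WT libraries alone -0.665 (permutation p = 0.0783). Dlk1 was most like Gm11168, Rps19-ps3 and Gm10800 in tumors (r = 0.777, 0.757 and 0.742) and Tmem8, Kazn and Secisbp2 in glands (r = 0.892, 0.889 and 0.877).

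Mest was lower in WT tumors, with 0.134, 1.14 and 4.56 CPM (lowest, median, highest) beside 1.09, 2.52 and 7.24 CPM in glands, and the groups overlapped. The log2 fold change was -1.35 (SE 0.42, edgeR adjusted p = 0.0223) in WT and -1.01 (SE 0.42, edgeR adjusted p = 0.123) in KO, which was not called. In KO mice 7 of 9 tumors were below every gland, and Mest was called there in 6 of 24 alternatives. Those were DESeq2 (adjusted p = 0.0565), and edgeR with no filter (0.0258), with filterByExpr (0.0929), on the compared groups only (0.0615), without KO tumor week 10 replicate 1 (0.0838) and without KO tumor week 12 replicate 1 (log2 -1.39, adjusted p = 0.0151). Its call in WT was lost without the WT gland of week 6 replicate 1 (log2 -0.80) or the WT gland of week 10 replicate 1 (log2 -1.06). Copg2, which shares exon bases with Mest, was not called in either (log2 0.06 in WT, 0.27 in KO, edgeR adjusted p = 0.762 and 0.0511). Plagl1 stayed between 1.79 and 6.69 CPM in all libraries, with log2 fold changes of 0.28 (SE 0.21, edgeR adjusted p = 0.412) in WT and -0.05 (SE 0.21) in KO, neither called.

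Calls were also counted week by week. In WT mice 3 of 10 members were called at week 6 (5.86% of all genes), 4 at week 8 (9.19%) and 4 at week 10 (6.13%). Cdkn1c, Peg3 and Meg3 were called at all 3 weeks with all libraries in the fit, and Grb10 at weeks 8 and 10. Leaving out a gland leaves 1 gland on that side, whose spread is taken to be that of the other groups. Without WT gland week 6 replicate 2, 0 members were called at that week, at log2 1.80 for Cdkn1c, -2.21 for Meg3 and 1.65 for Peg3, where 494 of 36261 genes were called in place of 2139 of 36527. The week 6 call of Meg3 was lost in 4 of 5 fits that left out 1 library (tumor replicate 2 or 3 or either gland, log2 -2.21 to -1.54, edgeR adjusted p = 0.105 to 0.241). Without WT gland week 10 replicate 1 only 1 member was called at week 10, beside 1215 of 36286 genes, with Peg3 at log2 1.95 (edgeR adjusted p = 0.114), Meg3 at -1.68 (0.25) and Grb10 at 0.85 (0.327). The week 10 call of Peg3 was also lost without gland replicate 2 (log2 1.93, edgeR adjusted p = 0.105) and that of Grb10 without tumor replicate 3 (0.94, 0.102), and the week 8 call of Grb10 without WT gland week 8 replicate 1 (0.89, 0.198). In KO mice 1 was called at week 8 (2.49% of all genes), 4 at week 10 (5.66%) and 4 at week 12 (6.11%). Without the KO gland of week 8 replicate 1 the week 8 count was 0, beside 41 of 36120 genes. Without KO tumor replicate 1 of that week it was 2, beside 952 of 36155 genes, and without the KO gland of week 10 replicate 2 only 1 was called at week 10, beside 693 of 36391 genes, with Meg3 at log2 -2.41 (edgeR adjusted p = 0.103) and Peg3 at 1.46 (0.331) not called. The week 10 call of Cdkn1c was lost without either gland (log2 1.46 and 1.63, edgeR adjusted p = 0.176 and 0.185). Fitted on the compared groups alone, KO week 12 gave 0 of 10 members and 0 of 22035 genes, with Meg3 at log2 -2.61 (edgeR adjusted p = 0.174) and Grb10 at 1.67 (0.187). Whether the tumor effect differed between genotypes was tested over weeks 8 and 10, and 0 of 10 members were called (0.00548% of all genes, 2 of them), with 2 members at an unadjusted p under 0.05 in edgeR and 0 called by DESeq2. Those were Cdkn1c and Meg3, with log2 differences of 0.83 and -1.28 and edgeR adjusted p-values of 0.869 and 0.868.

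Peg3 was the member that moved with genotype as well as tissue. In WT mice of weeks 6, 8 and 10 all 9 tumors (110.3, 147 and 220.5 CPM, lowest, median and highest) were above all 6 glands (26.3, 36.5 and 62.5 CPM), a log2 fold change of 2.03 (SE 0.26, edgeR adjusted p = 2.365e-06). In KO mice 9 tumors had 149, 221 and 994 CPM and 6 glands 52.3, 117 and 556 CPM, and only 2 tumors were above every gland. The log2 fold change there was 1.18 (SE 0.25, edgeR adjusted p = 0.001571). The levels were those of a well-counted gene, 1303 to 41937 reads per library.

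Between genotypes 1 of 10 members was called in tumors (0.512% of all genes) and 1 in glands (0.906%), and it was Peg3 in both. At week 8 the WT tumors had 147, 140.0 and 136 CPM and the KO tumors 236, 881 and 994 CPM. At week 10 the WT tumors had 143, 110.3 and 165 CPM and the KO tumors 221, 208 and 219 CPM. Every KO tumor of weeks 8 and 10 was thus above every WT tumor of those weeks. The log2 fold change, WT over KO, was -1.47 (SE 0.27, edgeR adjusted p = 0.01921), and it was -2.32 at week 8 alone (edgeR adjusted p = 0.0293) and -0.63 at week 10 alone (edgeR adjusted p = 0.814). By week 12 the KO tumors were at 211, 149 and 269 CPM and the WT tumor at 406 CPM. The lowest of these KO tumors lay below the highest WT tumor of week 10.

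In glands the difference was also widest at week 8. The 2 WT glands of week 8 had 32.8 and 26.3 CPM of Peg3 and the KO glands 158 and 556 CPM. At week 10 the WT glands had 36.8 and 36.3 CPM and the KO glands 78.6 and 52.3 CPM, and at week 12 the WT glands had 176 and 264 CPM and the KO glands 82.8 and 150.2 CPM. The order of genotypes turned at week 12. Averaged, the log2 fold change was -1.17 (SE 0.27, edgeR adjusted p = 0.04455). The call was lost in 6 of 12 fits that left out 1 gland, with KO gland week 8 replicate 2 moving it most (-0.78, edgeR adjusted p = 0.29) and the other 5 at -1.17 to -0.998. For week 8, 10 and 12 alone the log2 fold change was -3.60, -0.84 and 0.92 (edgeR adjusted p = 0.00423, 0.824 and 0.494).

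The rRNA share was high in some of the libraries with the most Peg3 and not in others. The 3 highest Peg3 libraries were KO tumor week 8 replicates 3 and 2 and KO gland week 8 replicate 2, with rRNA shares of 3.62%, 12.0% and 15.7%, and the fourth, the WT tumor of week 12 at 406 CPM, had a share of 0.0113%. The other 5 libraries over 1% ranked lower, with tumors and glands ranked together. KO tumors of week 10 with 2.06% and 2.51% ranked 10 and 12 of 33, the KO gland of week 12 with the highest share of all (18.8%) ranked 18, and the KO glands of week 10 with 8.04% and 4.35% ranked 26 and 28. In each week the KO gland with the higher share had more Peg3. The levels were 556 and 158 CPM at week 8 (15.7% and 0.0224%) and 78.6 and 52.3 CPM at week 10. At week 12 they were 150.2 and 82.8 CPM (18.8% and 0.0362%). Among KO tumors the library with the lowest share had the least Peg3 at week 8 (236 CPM) and the most at week 10 (221 CPM). Without the 8 libraries over 1%, the log2 fold change was -0.69 in tumors, with 1 KO tumor left at each of weeks 8 and 10. In glands it was -0.51, over weeks 8 and 12 only, with 1 KO gland left at each and none at week 10. Neither was called. With the log10 rRNA share as a covariate the log2 fold change was -1.26 in tumors (edgeR adjusted p = 0.0462) and -0.76 in glands (edgeR adjusted p = 0.540), where the call was lost. The 2 KO tumors of weeks 8 and 10 that had low shares stood at 236 and 221 CPM, above all 6 WT tumors. The part of rRNA in the result was not tested beyond these fits.

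Usp29, a deubiquitinase gene that shares its start region with Peg3, and Zim1, a zinc finger gene beside it, had their highest levels in the same 3 libraries as Peg3. Usp29 had a Pearson r with Peg3 of 0.936 over 19 tumors and 0.975 over 14 glands (Spearman rho 0.768 and 0.96). Zim1 had a Pearson r of 0.874 and 0.779 and a lower Spearman rho of 0.549 and 0.591. Usp29 was the 1 of 46 other imprinted genes that was called between genotypes, in tumors (log2 -1.55, SE 0.37, edgeR adjusted p = 0.068) and in glands (log2 -1.49, SE 0.41, edgeR adjusted p = 0.0928). For the genotype difference of Usp29, no value without the libraries of high rRNA share is given here. Zim1 was not called between genotypes (log2 -1.34 and -0.42, edgeR adjusted p = 0.232 and 0.857).

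**Figure D5:**
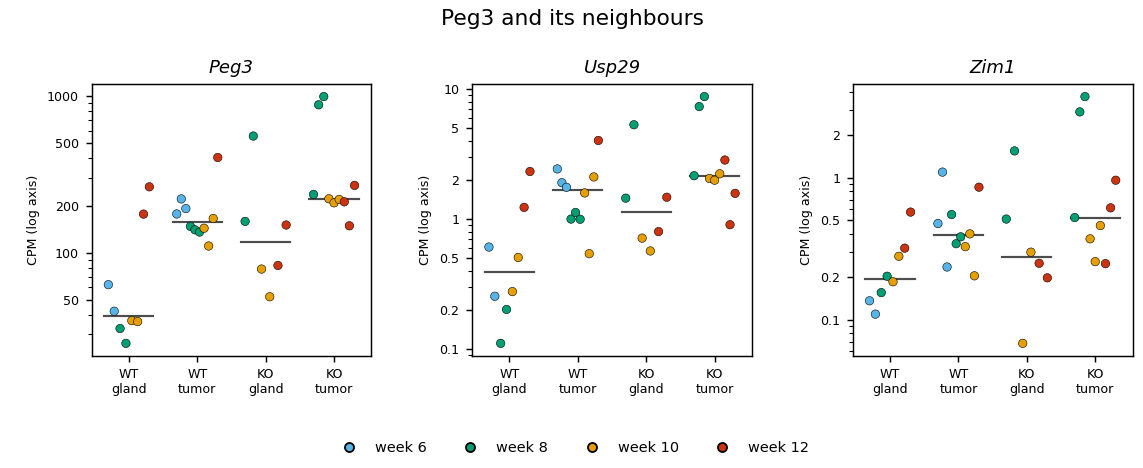
CPM on log axes of Peg3, Usp29 and Zim1 in the 33 libraries, by genotype and tissue and colored by week, with a bar at each group's median. In all 3 genes the KO tumors of week 8 include the highest points, with Peg3 at 881 and 994 CPM.

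With age 1 member was called. WT tumors of week 10 against week 6 gave 0 of 10 members called (0.011% of all genes) and 2 at an unadjusted p under 0.05, and KO tumors of week 12 against week 8 gave 0 of 10 (0% of all genes) and 4 at an unadjusted p under 0.05 in edgeR. The 2 in WT tumors were Mest and H19. Mest had 2.30, 4.56 and 2.17 CPM at week 6 and 0.134, 0.378 and 1.14 CPM at week 10, without overlap. Its log2 fold change was -2.45 (SE 0.70, edgeR adjusted p = 0.438). H19 differed by log2 2.37 (SE 1.00, edgeR adjusted p = 0.549). WT tumors had 27.9 to 42.3 CPM of H19 at week 6 and 502, 23.3 and 12.8 CPM at week 10. Only replicate 1 of week 10 lay above the week 6 tumors, and replicates 2 and 3 lay below all of them. Mest was called lower at week 10 by DESeq2 (log2 -2.44, adjusted p = 0.0486), beside 253 of 36527 genes, and by edgeR without WT tumor week 10 replicate 3 (log2 -3.57, adjusted p = 0.0747), beside 376 of 36368. The 4 in KO tumors were Peg3, Cdkn1c (log2 0.95), Meg3 (log2 -1.54) and Dlk1, which was at the floor. Peg3 had 236, 881 and 994 CPM in KO tumors of week 8 and 211, 149 and 269 CPM in those of week 12, with overlap (log2 -1.75, SE 0.39, edgeR adjusted p = 0.442). Peg3 was called lower at week 12 by DESeq2 (log2 -1.77, adjusted p = 0.0171), beside 125 of 36527 genes, and by edgeR without KO tumor week 8 replicate 1 (log2 -2.16, adjusted p = 0.00462), beside 214 of 36155. In WT glands of week 12 against week 6, 1 of 10 was called (0.35% of all genes): Peg3 rose from 62.5 and 42.3 CPM to 176 and 264 CPM (log2 2.07, SE 0.48, edgeR adjusted p = 0.0925). That call was lost when any 1 of these 4 glands was left out, at log2 1.75 to 2.38, where 1 gland stood alone on 1 side, its spread taken to be that of the other groups, and 1 to 33 of all genes were called.

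The other imprinted genes moved in both directions as well. Of 46 tested, 16 were called between WT tumors and glands (7 higher, 9 lower) and 17 between KO tumors and glands (7 higher, 10 lower), beside the shares of 15.7% and 10.6% over all genes. By the naming rule the WT genes higher in tumors were Peg10 (log2 2.43, SE 0.65), a retrotransposon-derived gene, Usp29 (2.29, SE 0.39), Asb4 (1.35, SE 0.53) and Zim1 (1.34, SE 0.44). Those lower in WT were Rasgrf1 (-4.87, SE 0.64), a Ras exchange factor, Slc38a4 (-4.34, SE 0.57), an amino acid transporter, Dio3 (-3.68, SE 0.49) and Peg12 (-3.23, SE 0.30). In KO they were Peg10 (3.95, SE 0.76), Sgce (2.93, SE 0.76), Asb4 (2.27, SE 0.64) and Ppp1r9a (1.42, SE 0.19) higher, and Slc38a4 (-4.00, SE 0.55), Rasgrf1 (-3.54, SE 0.64), Dio3 (-3.40, SE 0.47) and Ndn (-3.25, SE 0.36) lower. Of 10 genes that set or keep imprints 1 was called, Zfp57, lower in WT (log2 -3.10, SE 0.37) and KO tumors (log2 -2.68, SE 0.37), named after its values were seen. In WT the call of Zim1 was lost without the WT gland of week 6 replicate 2 (edgeR adjusted p = 0.103) and that of Asb4 without any of 7 single libraries (log2 1.08 at the lowest), with the rRNA covariate (log2 1.32, edgeR adjusted p = 0.113) and with the replicate block (log2 1.14, edgeR adjusted p = 0.18). Without the libraries of high rRNA share Peg10, Sgce and Asb4 were not called in KO, at log2 2.545, 2.115 and 2.902. That fit had fewer libraries and covered weeks 8 and 12 only. Without WT gland week 8 replicate 2 Peg10 was 4.35 in WT, and without KO gland week 8 replicate 1 Peg10 was 5.64 and Sgce 4.80 in KO, Sgce also moving by over 1.5-fold without KO gland week 12 replicate 1. Slc38a4 was -3.19 in WT without WT gland week 10 replicate 1 and -3.28 in KO without KO gland week 12 replicate 1. Rasgrf1 was -4.18 in WT without WT gland week 8 replicate 2 and -5.46 without WT tumor week 10 replicate 1, and -2.69 in KO without KO gland week 12 replicate 1. Rasgrf1 also moved by over 1.5-fold without WT gland week 6 replicate 2 and without KO gland week 10 replicate 1. The calls of Peg10, Sgce, Slc38a4 and Rasgrf1 were kept in these fits. Zfp57 was at 0.122 to 0.822 CPM in WT tumors and 2.06 to 5.79 CPM in WT glands.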

How the data were processed

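RNA was taken from sorted GFP+ cells, rRNA-depleted and made into stranded libraries. Per the labels and the study's methods, the authors aligned reads with HISAT to GRCm38 and Gencode transcripts, dropped duplicates (Picard 1.128) and assigned the remaining reads to genes by HTSeq. The deposited counts are whole reads per gene, not normalized, for 33 libraries. A second table by the authors holds a normalized signal, the counts divided by 1 size factor per library, and was used here only in an alternative. Whether HTSeq counted by strand is not given in the sources used here.

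Samples were grouped by the genotype, tissue and week in the labels. The 111 rows that name no gene held 0.0778% of reads and were left out. Genes with at least 10 reads in all (36527) were fitted over all 33 libraries with edgeR 4.0.16 (R 4.3.3, TMM factors 0.708 to 1.1183) with 1 coefficient per genotype, tissue and week, and tested with its quasi-likelihood test, with Benjamini-Hochberg adjustment over all genes tested. The WT tumor of week 12, alone in its group, entered no comparison between groups, only the correlations. Ratios were compared by exact two-sided permutation tests and correlations of log2(CPM + 0.5) by 100000 permutations (SciPy 1.17.1). Libraries held 28419983 to 130981596 counted reads. No 2 libraries of a group agreed within sampling noise (lowest chi-square per degree of freedom 37.4). DESeq2 1.42.0, other filters and scalings, an rRNA covariate and leaving out libraries were alternatives, and the fit was tested on simulated data.

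The 10 members and the lists were chosen with earlier results of these data known. All 10 members are named. Of the lists of other imprinted genes and imprint factors, those called with the largest change in tumors against glands are named, at most 4 per direction and genotype, as are the 3 genes most like H19, Igf2, Dlk1 and Meg3. Marker lists of 10 genes each covered basal, luminal, fibroblast, adipocyte, endothelial, macrophage, lymphocyte and skeletal muscle cells. Sequences are those of RefSeq (GRCm38.p6), and gene positions those of GENCODE on GRCm38.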

Additional observations from a re-analysis of the deposited data

Results flagged for a closer look

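Each of the 10 members was looked at in 4 groups of libraries (WT and KO, tumor and gland, pooled over weeks). In 5 of these 40 sets of values 1 library stood far from the others on the log2(CPM + 0.5) scale, where chance alone sets a library apart in about 1 in 20, and the same libraries recur for every gene. H19 was 6.26 CPM in the KO tumor of week 12 replicate 1, with the next KO tumor at 41.6 CPM. Grb10 was 53.0 CPM in the WT tumor of week 12, with the next WT tumor at 104.6 CPM. Peg3 was 406 CPM in the same tumor, with the next at 220.5 CPM, and this tumor entered no comparison between groups, so that its level stands beside the WT glands of week 12 at 176 and 264 CPM as a value only. Dlk1 was 0.084 CPM (4 reads) in the KO tumor of week 8 replicate 2, and Igf2 was 0.0576 CPM (3 reads) in the WT tumor of week 10 replicate 1, both within a few reads of the floor.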

How the results depend on the processing

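Between tumors and glands averaged over weeks, Cdkn1c, Grb10 and Peg3 kept their direction and call in all alternatives in both genotypes, and Meg3 did in WT. Where values below changed, the cause was not tested. Of 10 members, the fit on the compared groups alone called 5 at WT week 6 (3004 of 23592 genes called), 2 at WT week 10 (995 of 24137, with Meg3 at -2.17 and Grb10 at 1.22 not called), 0 at KO week 12 (0 of 22035), 0 between WT and KO glands (67 of 27578, with Peg3 at -1.18) and 2 in WT glands of week 12 against week 6 (153 of 22597). With no filter on low counts 2 were called at KO week 8, 2 between WT tumors of weeks 10 and 6, 1 between KO tumors of weeks 12 and 8 and 2 between the WT glands, beside 1613, 440, 176 and 558 of 49472 genes. For the last 3 DESeq2 gave 1, 1 and 2, beside 253, 125 and 683 of 36527 genes, and filterByExpr 2 for the glands, beside 280 of 21423. The rRNA covariate gave 0 between WT and KO glands and 0 between WT glands of weeks 12 and 6, beside 52 and 51 of 36527 genes, with Peg3 in the second at 1.91 (edgeR adjusted p = 0.133).

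The following were chosen after seeing the data. Without the libraries over 1% rRNA no KO gland of week 10 was left. KO tumors and glands, and WT and KO glands, were then compared over weeks 8 and 12 only. Meg3 and Dlk1 were not called between KO tumors and glands, nor was Peg3 between genotypes in either tissue. The log2 fold changes of WT against KO turned to 1.08 for Igf2 and 0.037 for Igf2r in tumors and -0.32 for H19 in glands. Week 10 alone gave 0 members in tumors and 0 in glands, and week 12 alone 0 in glands with Peg3 at 0.92, beside 7, 1 and 183 of 36527 genes.

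Replicate numbers were not taken to pair mice. The deviations of same-numbered libraries had a mean r of 0.033, with 62 of 171 pairs over 0.1. Those of different-numbered libraries had a mean r of -0.018, with 92 of 300 pairs over 0.1. With the replicate block 0 members were called between WT glands of weeks 12 and 6, beside 79 of 36527 genes and with Peg3 at 2.03 (edgeR adjusted p = 0.102), and Plagl1 in KO tumors against glands turned to 0.023. The call of Asb4 in WT was lost with the block (1.14).

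With a pseudocount of 1 the log2 ratio of H19 to Igf2 between WT and KO glands was 0.212 and that of Dlk1 to Meg3 between KO tumors and glands 0.067. H19 and Igf2 had r = 0.522 in KO tumors alone and -0.654 in WT glands alone, and Dlk1 and Meg3 -0.665 in WT glands alone. Ratios without libraries under 10 reads could not be run, since all 33 had such a gene.

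Leaving out 1 library gave 0 to 3 members at WT week 6, 1 to 5 at WT week 10, 0 to 2 at KO week 8, 1 to 5 at KO week 10, 0 to 1 between WT and KO glands, 0 to 1 in WT tumors and 0 to 1 in KO tumors over time, and 0 in WT glands. In the same order all genes called ran from 494 to 1820, 1215 to 2338, 41 to 952, 693 to 1976, 60 to 770, 0 to 376, 0 to 214 and 1 to 33. Signs turned for H19 (-0.88 to 0.34) and Plagl1 (-0.16 to 0.10) in KO tumors against glands, H19 (-0.82 to 1.11) and Plagl1 (-0.172 to 0.069) in WT against KO tumors, Cdkn1c (-0.16 to 0.15) and Dlk1 (-0.49 to 0.55) in WT against KO glands, and the ratios of H19 to Igf2 in glands (-0.705 to 0.509) and Dlk1 to Meg3 in KO (-0.716 to 0.08).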
